A study of Mus musculus with 4 samples.

Results

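Transcripts of the integrated stress response were followed in heart and skeletal muscle of mice whose manganese superoxide dismutase (MnSOD) gene had been deleted in these tissues. The genes described are Atf4, Atf5, Ddit3, Ddit4, Trib3, Nupr1, Chac1, Sesn2, Gdf15 and Fgf21, regulators and secreted products of the ATF4 response. They were chosen by name, with earlier results of these data known, and every probe set annotated to 1 symbol was used. Of the 10 genes, 9 had a probe set, among 18193 genes named on the arrays. These 9 were read by 15 probe sets, with 1 probe set for 4 genes and several for the other 5. Gdf15 was not analysed here.

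Total RNA was hybridised to 4 oligonucleotide arrays of mouse transcripts, 1 for each group. The d/d groups were heart and muscle of mice in which both floxed MnSOD (Sod2) alleles are deleted by Cre from an MCK-Cre transgene. The f/f groups were heart and muscle of homozygous floxed mice, which served as controls. All 4 groups thus derive from floxed alleles, and whether the controls carried the transgene, the age of the mice, the muscle taken and any pooling of animals are not given in the labels. The MCK (muscle creatine kinase) promoter is active in heart and skeletal muscle cells, so tissue RNA also holds transcripts of other cells in which Cre is not driven. With 1 array per group there is no error between animals, and each difference describes a pair of arrays.

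In the integrated stress response, kinases that sense mitochondrial, endoplasmic reticulum, amino acid or viral stress phosphorylate the translation factor eIF2 alpha. General translation falls, while ATF4, a basic leucine zipper (bZIP) transcription factor, is made more efficiently from its existing message. ATF4 pairs with C/EBP proteins and related factors at composite DNA elements and raises genes of amino acid synthesis, amino acid transport and transfer RNA charging, together with its own feedback genes. In heart and muscle with defective mitochondria the response is known for the release of FGF21 and GDF15, hormones called mitokines. ATF4 is governed largely at translation, so the level of its transcript is not a measure of its activity.

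The composite element, known as the C/EBP-ATF response element or CARE, was sought as TGATGNAA on both strands in RefSeq promoter windows (GRCm38.p6) reaching from 250 bases before to 50 bases after the start of each gene. All 10 genes had a window, 12 windows in all. The letters were found in 4 of the 10 genes, Nupr1, Chac1, Fgf21 and Trib3, against 4.51% of 27025 genes, or in 4 of the 12 windows against 3.97% of 32851 windows. The genes were chosen by name as parts of the ATF4 response, so the shares over all genes are a description and not a test. A match describes letters and not bound protein. The 250 bases before the start are shown for Nupr1, the gene that differed most in heart, for Chac1, the gene that differed most between the tissues, and for Fgf21, the mitokine on the array, each 5′ to 3′ on the strand of its gene with the match in capitals.
Nupr1, chr7:126625471-126625720, minus strand: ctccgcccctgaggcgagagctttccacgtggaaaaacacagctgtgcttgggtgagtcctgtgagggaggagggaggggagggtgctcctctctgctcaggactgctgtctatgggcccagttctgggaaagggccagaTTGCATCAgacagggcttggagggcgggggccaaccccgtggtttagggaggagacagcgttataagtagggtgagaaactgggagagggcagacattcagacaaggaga
Chac1, chr2:119350992-119351241, plus strand: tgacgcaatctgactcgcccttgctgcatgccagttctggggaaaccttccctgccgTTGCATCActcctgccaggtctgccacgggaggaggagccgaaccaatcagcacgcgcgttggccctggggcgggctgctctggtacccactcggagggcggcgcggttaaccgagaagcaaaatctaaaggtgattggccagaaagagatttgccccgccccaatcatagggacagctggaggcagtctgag
Fgf21, chr7:45615491-45615740, minus strand: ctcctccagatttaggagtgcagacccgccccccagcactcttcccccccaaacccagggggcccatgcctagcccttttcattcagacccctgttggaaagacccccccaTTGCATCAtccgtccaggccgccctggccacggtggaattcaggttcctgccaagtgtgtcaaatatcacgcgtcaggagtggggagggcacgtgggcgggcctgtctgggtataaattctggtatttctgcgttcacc

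The same 8 letters, TTGCATCA, were found in all 3 promoters, the element as read on the other strand. They lay 110 to 103 bases before the start in Nupr1, 193 to 186 bases before it in Chac1 and 139 to 132 bases before it in Fgf21. The match in Trib3, TTACATCA, lay inside the first 50 transcribed bases. Atf4, Atf5, Ddit3, Ddit4, Sesn2 and Gdf15 had no match in this window. Neither the cyclic AMP element TGACGTCA, in 1.79% of all windows, nor the endoplasmic reticulum stress element ERSE (CCAAT and CCACG with a fixed spacer), in 0.119%, both sought on either strand, was found in any window of the 10 genes. In the windows of Nupr1, Chac1 and Fgf21 the CARE letters thus overlap no match to the other motifs.

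Signals are linear intensities, scaled so that the arrays share 1 trimmed mean, and values under a floor of 7.51 are treated as not measurable. Between 58.0% and 61.1% of probe sets lay above the floor on each array. Calls of higher or lower needed a 2-fold difference (1 on the log2 scale) and a brighter array above the floor, and folds against a floored signal are lower bounds. Technical scatter was gauged from genes with several probe sets, whose log2 differences had an SD of 0.388 in heart and 0.400 in muscle, called the yardstick here. Of the 4 probe sets of Sod2, all were lower in d/d heart, by 0.21 to 1.22 on the log2 scale, and 3 were lower in d/d muscle. Their position relative to the deleted part is not stated, so they do not check the genotype. All 10 heart muscle markers, such as Myh6 and Tnni3, were more than 2-fold higher in heart than in muscle and all 10 fast skeletal markers, such as Myh4 and Actn3, more than 2-fold lower, in both genotypes.

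In d/d heart, 3 of the 8 measurable genes were at least 2-fold higher than in f/f heart and 0 were at least 2-fold lower. The background over 13836 heart genes was 3.94% higher and 4.22% lower by the same rule, and 3.12% higher among the 4228 with a mean signal of 50 to 200 over the 4 arrays. The 3 genes were Nupr1, Ddit4 and Atf5, and Ddit3 came close at 1.93-fold. Over the 8 genes the median log2 difference was 0.69, against -0.05 over all genes. In d/d muscle 2 of the 8 were at least 2-fold higher, Ddit4 and Sesn2, and 0 at least 2-fold lower, against 2.64% higher and 3.25% lower of 14256 genes. The median was 0.35, against 0 (-0.00) over all genes. In tissue RNA, fewer cells of a type and less RNA per cell cannot be told apart. The genes, like the lists below, were chosen with earlier results of these data known. The shares over all genes given beside their counts are thus a description and not a test.

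**Figure D1:**
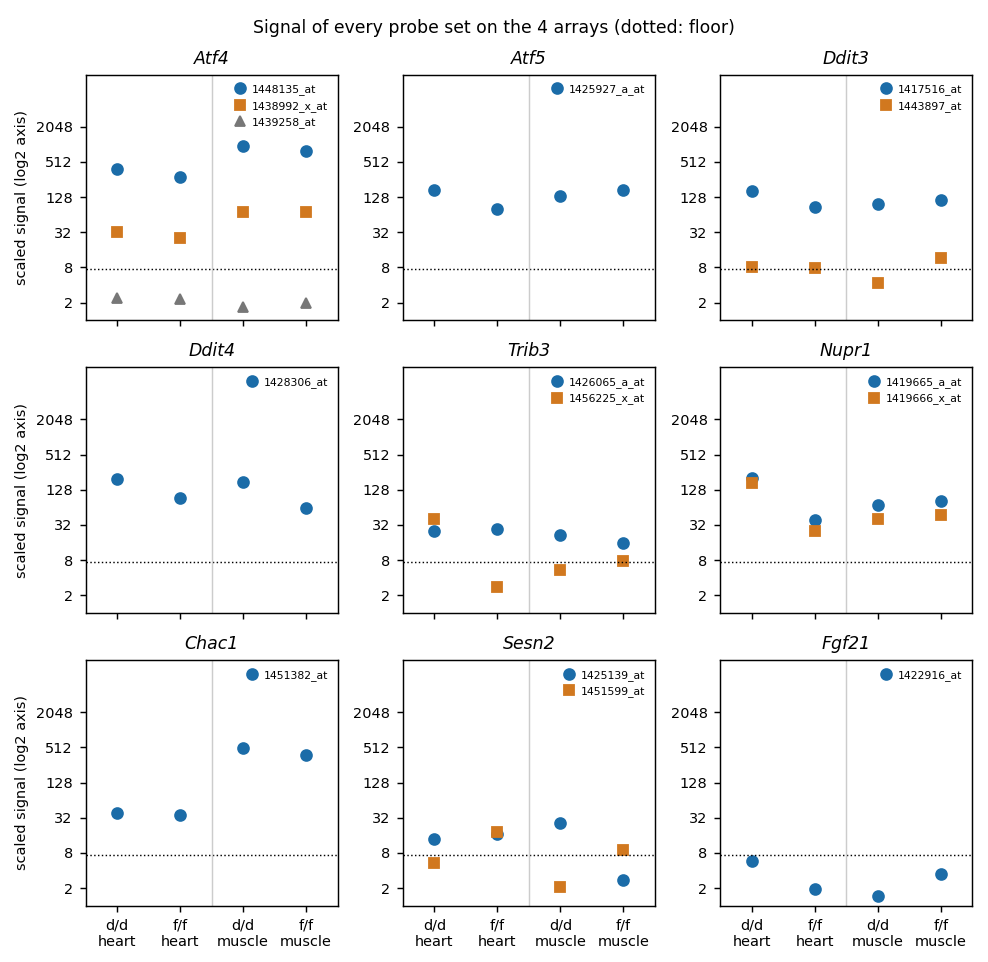
Scaled signal of each of the 15 probe sets on the 4 arrays, on a log2 axis, with 1 panel per gene, 1 point per array and the floor of 7.51 as a dotted line. Circles are the brightest probe set, which stands for the gene. Nupr1 stands out on the d/d heart array, Ddit4 on both d/d arrays and Chac1 on both muscle arrays, while Fgf21 lies under the floor throughout.

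Of the transcription factors, Atf4, the central factor of the response (GRCm38.p6 chr15:80255184-80257545), gave signals of 388 (d/d) and 286 (f/f) on the heart arrays and 956 (d/d) and 778 (f/f) on the muscle arrays. Its message was thus more abundant on both muscle arrays than on either heart array. The d/d signal was 1.36-fold higher in heart and 1.23-fold higher in muscle, log2 differences of 0.44 and 0.30. The heart value lies just past the yardstick of 0.388 and the muscle value within it. A dimmer probe set gave 32.3, 25.9, 70.3 and 71.9 in the same order. It differed by 0.31 in heart and -0.03 in muscle. The other was under the floor on all 4 arrays.

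Atf5, a bZIP factor related to ATF4 that also serves mitochondrial stress signalling (chr7:44812256-44816658), gave 166 (d/d) and 78.7 (f/f) in heart, against 132 (d/d) and 170 (f/f) in muscle. The f/f heart array was the low one of the 4. The d/d signal was 2.11-fold higher in heart, a log2 difference of 1.08, and 1.29-fold lower in muscle, a difference of -0.37, which is within the yardstick. Atf5 has a single probe set on the array, so no other reading was at hand.

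Ddit3 encodes CHOP, a C/EBP family factor induced by ATF4 that is linked to cell death. The gene lies at chr10:127290793-127296291. Its signal was 165 (d/d) and 85.8 (f/f) in heart, and 96.4 (d/d) and 113 (f/f) in muscle. Only the d/d heart array stood above the others, and the difference in heart, 0.95 on the log2 scale, fell just short of 2-fold. In muscle the difference was -0.23. The other probe set of Ddit3 lay near the floor, at 8.22 (d/d) and 7.91 (f/f) in heart and 4.27 (d/d) and 11.8 (f/f) in muscle, a 1.04-fold difference in heart and at least 1.57-fold lower in d/d muscle.

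Nupr1 is a small stress-induced chromatin protein, and it gave the largest heart difference of the 8 genes. The gene lies at chr7:126623246-126625470, and its signal was 204 (d/d) and 38.6 (f/f) in heart, and 70.1 (d/d) and 81.9 (f/f) in muscle. The d/d heart array was the highest of the 4 and the f/f heart array the lowest. The difference in heart was 5.29-fold, 2.40 on the log2 scale, the 40th highest of the 13836 genes measured. The second probe set, of a type (_x_at) that can bind related sequences, gave 169 and 25.2 in heart, a 6.70-fold difference. In f/f muscle it gave 48.3, 1.21-fold above d/d muscle. In muscle the probe sets differed by -0.22 and -0.27, both lower in d/d and within the yardstick.

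Trib3 (chr2:152337425-152344060), a pseudokinase that feeds back on ATF4 and CHOP, gave readings that disagree between its probe sets. The probe set that stands for it gave 25.2 (d/d) and 27.0 (f/f) in heart, with 21.2 (d/d) and 15.8 (f/f) in muscle. These differ by -0.10 in heart and 0.43 in muscle. The other, of a type (_x_at) that can bind related sequences, gave 40.3 (d/d) and 2.81 (f/f) in heart, at least 5.36-fold higher. In muscle it gave 5.49 (d/d) and 7.79 (f/f), on either side of the floor.

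Ddit4 and Sesn2 encode brakes on mTORC1, the kinase complex that drives protein synthesis. Ddit4, also called REDD1 (chr10:59949675-59951770), gave 199 (d/d) and 91.7 (f/f) in heart, and 174 (d/d) and 62.4 (f/f) in muscle. Both d/d arrays lay above both f/f arrays. Of the 8 genes it alone was at least 2-fold higher in both tissues, by 2.17-fold in heart and 2.78-fold in muscle, log2 differences of 1.12 and 1.48. Of 4230 genes with a mean signal of 50 to 200 over the 4 arrays, 0.544% passed 2-fold upward in d/d muscle. Ddit4 has 1 probe set.

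Sesn2 (chr4:132492804-132510456), a sestrin that passes leucine shortage to mTORC1, was close to the floor. Its brighter probe set gave 14.1 (d/d) and 17.0 (f/f) in heart, and 25.6 (d/d) and 2.75 (f/f) in muscle. The muscle difference is at least 3.41-fold since the f/f signal is under the floor. Its second probe set went the other way in muscle, at 2.08 (d/d) and 8.93 (f/f). In heart it gave 5.30 (d/d) and 18 (f/f), at least 2.40-fold lower in d/d, and the brighter one was 1.21-fold lower. Of 7165 genes with a mean signal under 50, 4.86% passed 2-fold upward in d/d muscle.

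Chac1 (chr2:119351242-119354326), an enzyme that degrades glutathione, differed by tissue and little by genotype. Its signal was 39.1 (d/d) and 35.7 (f/f) in heart, against 498 (d/d) and 376 (f/f) in muscle. Both muscle arrays lay well above both heart arrays. The d/d signal was 1.09-fold higher in heart and 1.33-fold higher in muscle, a log2 difference of 0.41 that is at the edge of the yardstick.

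Of the mitokines, Fgf21, a hormone that acts on fat, liver and brain (chr7:45613890-45615490), gave 5.83 (d/d) and 1.96 (f/f) in heart and 1.47 (d/d) and 3.55 (f/f) in muscle. All 4 values were under the floor, so no fold is given, and a difference in Fgf21 was not detectable on these arrays. The CARE letters of its promoter are shown above.

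**Figure D2:**
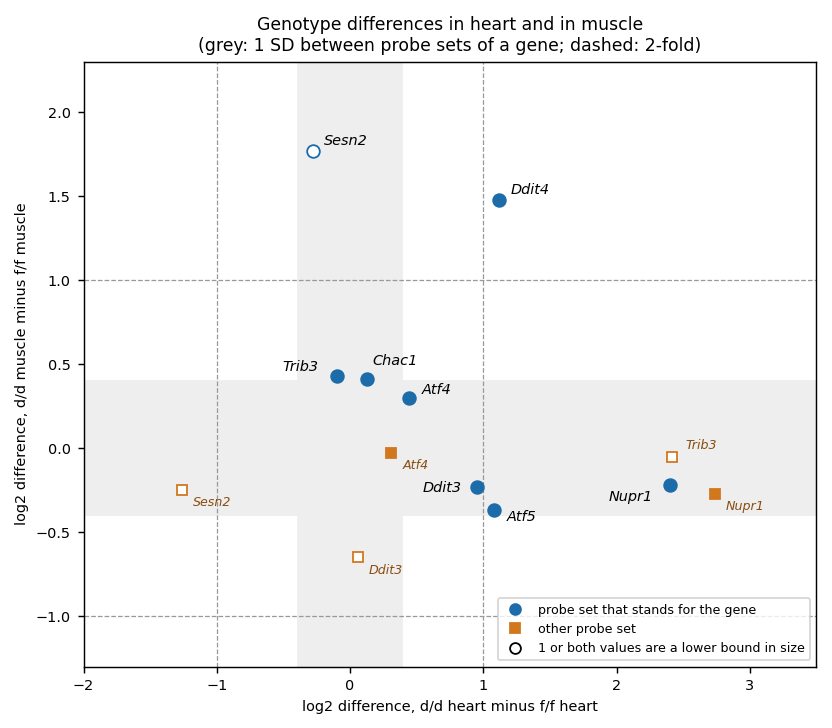
Log2 difference between d/d and f/f in muscle (vertical axis) against that in heart (horizontal axis) for the member probe sets measured in both tissues, 1 point per probe set, with grey bands for 1 SD between probe sets of a gene. Ddit4 lies past 2-fold on both axes and Nupr1 on the heart axis alone at 2.40. The open points, of Sesn2, Trib3 and the dimmer probe set of Ddit3, are bounds against a signal at the floor.

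Set side by side, the heart and muscle differences of the 8 genes took a few forms. Ddit4 was higher in d/d in both tissues. Nupr1, Atf5 and Ddit3 were higher in d/d heart by 0.95 to 2.40 on the log2 scale and lower by 0.22 to 0.37 in d/d muscle. The muscle values of these 3 lie within the yardstick of 0.400. The heart difference exceeded the muscle difference by 2.63 for Nupr1, 1.44 for Atf5 and 1.18 for Ddit3. With 1 array per group this difference of differences leaves no error and was not tested. Atf4 and Chac1 were above 0 in both tissues and under 1.5-fold in each. Trib3 and Sesn2 were at -0.10 and -0.28 in heart, and at 0.43 and at least 1.77 in muscle. Heart minus muscle was -0.53 for Trib3 and -2.05 or further below 0 for Sesn2. Their other probe sets were below 0 in muscle.

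A fit of the genotype effect over both tissues (limma, tissue as a block, 1 residual degree of freedom) counts a genotype effect that is unequal in heart and muscle as error. It called 0 of 13497 genes at a Benjamini-Hochberg adjusted p of 0.05, or 0%, with 569 genes at an unadjusted p under that value, and 0 of the 8 genes described. With an intensity trend in limma it called 1 gene, not among these. The smallest p of the 8 was that of Ddit4, higher in d/d in both tissues, with a log2 effect of 1.30 (SE 0.27; limma, unadjusted p = 0.00365, adjusted p = 1). Nupr1 had an effect of 1.09 (SE 0.61; limma, adjusted p = 1), from differences of 2.40 in heart and -0.22 in muscle.

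**Figure D3:**
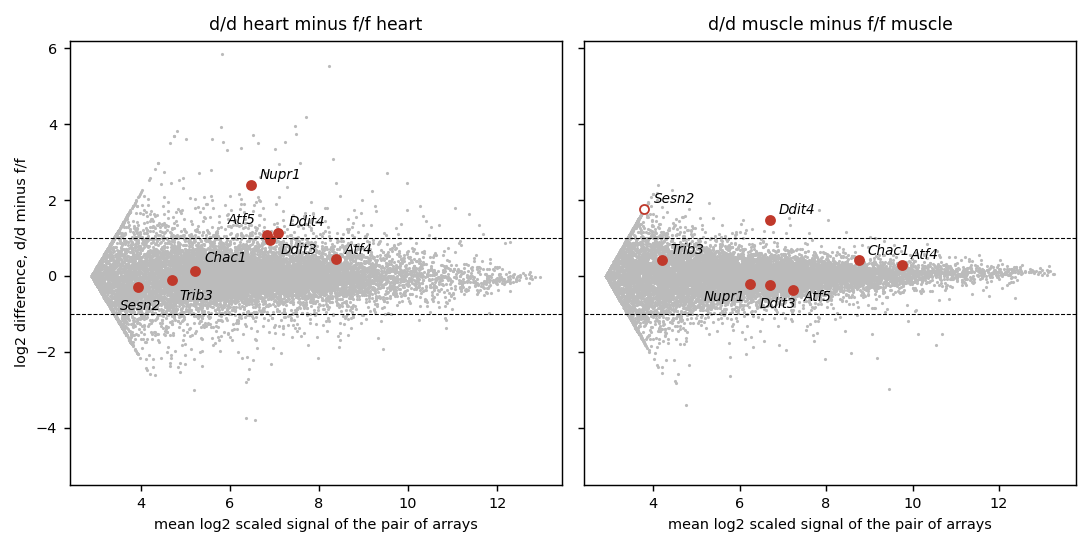
Log2 difference between d/d and f/f (vertical axis) against the mean log2 scaled signal of the pair of arrays (horizontal axis), for heart on the left and muscle on the right, with 1 grey point per gene and the described genes in red. Dashed lines mark 2-fold, and the open red point is a lower bound. Nupr1 at 2.40 in heart and Ddit4 at 1.48 in muscle lie above most genes of like signal, while Sesn2 sits at the dim end where values scatter most.

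Levels in the tissues were compared in f/f mice first. These comparisons share arrays with those above. Chac1 was 10.5-fold lower in f/f heart than in f/f muscle, Atf4 2.72-fold, Atf5 2.15-fold and Nupr1 2.12-fold, so that 4 of the 8 were at least 2-fold lower in heart. Sesn2 was at least 2.26-fold higher in f/f heart, the 1 gene in that direction. Of all 14364 genes measured, 12.1% were at least 2-fold higher in f/f heart and 8.30% lower. Without scaling of the arrays these shares were 23.7% and 4.62%, and with scaling to the median above the floor 9.70% and 10.8%. Trib3, Ddit4 and Ddit3 differed by 0.77, 0.56 and -0.40 on the log2 scale. Without scaling Ddit3 was at 0.03, and Atf5 and Nupr1 were at -0.68 and -0.66, which leaves 2 of the 8 at least 2-fold lower.

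For Nupr1, Ddit3, Atf5 and Sesn2 the sign of the tissue difference in d/d mice was opposite to that in f/f mice. The share of all genes with opposite signs was not counted. On the log2 scale, heart minus muscle was 1.54 for Nupr1, 0.78 for Ddit3 and 0.34 for Atf5 in d/d, all below 0 in f/f. Sesn2 was at -0.87, and above 0 in f/f, where its muscle signal was under the floor. The SD between probe sets was 0.560 in d/d, so Atf5 lies within it, and Atf5 was at 0.04 with scaling to the median above the floor. Without scaling Ddit3 was above 0 in both, at 0.03 in f/f and 1.24 in d/d. Nupr1 was 2.92-fold higher in d/d heart than in d/d muscle, Chac1 12.8-fold lower and Atf4 2.46-fold lower, and these 3 passed 2-fold. Of all 14124 genes 15.1% passed 2-fold upward in d/d heart and 10.5% lower, or 26.9% and 5.40% without scaling and 10.6% and 16.4% with scaling to the median above the floor. Unscaled, Atf4 was at -0.83 in d/d and no longer passed 2-fold. Over both genotypes the tissue effect, fitted by limma with genotype as a block, called 1838 of 13497 genes, or 13.6%, and 2 of the 8. These were Chac1, at -3.53 for heart minus muscle (SE 0.27; limma, adjusted p = 0.00166), and Atf4, at -1.37 (SE 0.26; limma, adjusted p = 0.0281). Both were lower in heart in both genotypes. Without the filter on low values the fit called 0 of 18193 genes, with 3627 at an unadjusted p under 0.05, and the adjusted p were 0.152 and 0.154.

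By a fixed rule, the genes whose profile over the 4 arrays was nearest in Euclidean distance (log2 scale, centred on each gene's mean) were found for the 3 genes that varied most. Crispld1 and Fyb were nearest to Nupr1, at distances of 0.06 and 0.35. Crispld1 gave 59.7 (d/d) and 11.0 (f/f) in heart and 19.7 (d/d) and 22.6 (f/f) in muscle. Tlcd3b and Scn4b were nearest to Chac1, at 0.34 and 0.35. Sfrp5 and Prss53 were nearest to Sesn2, at 0.17 and 0.18. These rest on 4 arrays and on 4066 or 4067 candidate genes, and are a description only.

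Other genes of the response were read from lists by function. Upstream of ATF4, of the 13 measured kinases, phosphatase subunits, eIF2B subunits and mitochondrial relay genes, 0 passed 2-fold in either tissue, with medians of 0.13 in heart and -0.02 in muscle. Ppp1r15a, the inducible phosphatase subunit that reverses eIF2 alpha phosphorylation, gave 89.5 (d/d) and 58.7 (f/f) in heart, a difference of 0.61. Dele1, which carries the mitochondrial stress signal to the kinase HRI, read 204 and 373, 1.83-fold lower, and 2.05-fold lower on a dimmer probe set. Both were picked for mention after their values were seen.

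Among 13 enzymes of amino acid and one-carbon synthesis, 3 passed 2-fold upward in d/d heart and 2 downward, with a median of 0.28. Mthfd2, a mitochondrial folate enzyme, read 114 against 9.35 on 1 probe set and 65.0 against 21.5 on the other, 12.2-fold and 3.02-fold higher. Asns, asparagine synthetase, read 114 against 31.1, 3.65-fold higher, and at least 6.34-fold higher on a dimmer probe set. Aldh18a1, an enzyme of proline synthesis, read 122 against 50.8, 2.39-fold higher, but its 4 other probe sets ran from 1.27-fold lower to 2.10-fold higher. Gpt2, a mitochondrial alanine aminotransferase, was 2.55-fold lower, with its 3 other probe sets 1.51-fold to 1.91-fold lower, and Cbs, of the transsulfuration path, at least 2.04-fold lower. In d/d muscle Mthfd2 differed by 0.00 on the log2 scale and Asns by 0.41. Psat1, of serine synthesis, was at least 2.06-fold higher there, with f/f under the floor, and its other probe set was at least 1.31-fold lower. Cbs was 2.05-fold higher.

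Of 9 amino acid transporters with a heart value, 2 passed 2-fold upward, 1 downward, and the median was 0.11. Slc7a5, which imports large neutral amino acids, read 32.4 against 1.02, at least 4.32-fold higher, and Slc1a4, for small neutral ones, 17.5 against 1.45, at least 2.33-fold, with a second probe set at 1.19-fold lower. Slc6a9, a glycine transporter, was 2.22-fold lower on the probe set that stands for it and at least 1.91-fold higher on its other. In muscle 0 of 8 passed 2-fold, with a median of 0.31. Of 19 aminoacyl-tRNA synthetases 0 passed 2-fold. In heart 17 were above 0, with a median of 0.23, against -0.05 over all genes. In muscle 13 were above 0, with a median of 0.10, against 0 (-0.00) over all genes. The share of all genes above 0 was not counted. In heart Yars at 1.89-fold, Nars at 1.86-fold and Gars at 1.70-fold were the highest, picked after their values were seen. CARE letters were found in 5 of the 13 synthetase genes that had a window, Aars, Gars, Iars, Tars and Yars, in 3 of 12 synthesis genes and in 2 of 7 transporter genes. Of the latter lists, Asns differed by 1.87 in heart, Slc1a4 by at least 1.22, Got1 by -0.14 and Slc7a11, with d/d under the floor, by -0.12 or further below 0. Among the other lists the letters were found in Jdp2, at 0.63, Atf3, at -0.19, and Herpud1, at -0.68. Over these 3 lists together, 5 of 41 genes passed 2-fold upward in d/d heart and 3 downward, against 3.94% and 4.22% of all genes. In muscle 2 of 40 were higher and 0 lower, against 2.64% and 3.25%, so the muscle count is near the background.

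**Figure D4:**
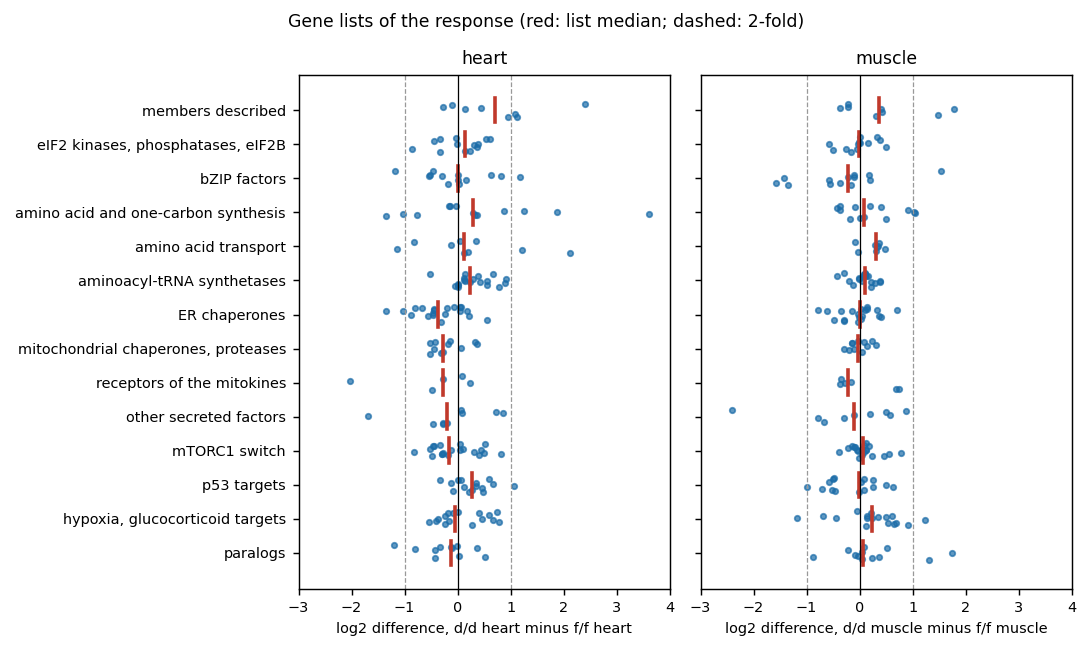
Log2 difference between d/d and f/f for the genes of each list, heart on the left and muscle on the right, with 1 point per measured gene, a red bar for the median of the list and dashed lines at 2-fold. The described genes have medians of 0.69 and 0.35, and the endoplasmic reticulum chaperones have a median of -0.38 in heart.

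Chaperones of the endoplasmic reticulum, which answer to the factors ATF6 and XBP1 as well as to PERK, went the other way in heart. Of 20 measured, 14 were below 0 in d/d heart, 2 at least 2-fold lower and 0 higher. The median was -0.38, against -0.05 over all genes. Sdf2l1 was 2.55-fold lower and Hyou1 2.05-fold lower, both folding factors, and Hspa5, the chief chaperone there, read 1018 against 1497, with all 3 of its probe sets lower by 0.32 to 0.62. In muscle the median was 0.01 and 0 passed 2-fold. The endoplasmic reticulum stress element was found in 9 of the 18 of these genes that had a window and in 0 of the 10 genes described. Mitochondrial chaperones and proteases had a median of -0.27 in heart and -0.04 in muscle, with 0 of 11 past 2-fold in either.

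Among 13 bZIP factors that pair with or stand beside ATF4, Cebpd was 2.26-fold higher in d/d heart and 2.88-fold higher in d/d muscle. Its signal was 223 (d/d) and 99.0 (f/f) in heart and 241 (d/d) and 83.5 (f/f) in muscle, both d/d arrays above both f/f arrays as for Ddit4. Its dimmer probe set was at least 2.13-fold higher in heart and 1.17-fold lower in muscle. Batf2 was 2.26-fold lower in d/d heart. Atf3, an ATF4 target that is also an immediate early gene, gave 42.2 (d/d) and 48.0 (f/f) in heart and 11.1 (d/d) and 33.2 (f/f) in muscle, 2.99-fold lower in d/d muscle. Cebpa and Batf were at least 2.56-fold and at least 2.67-fold lower in d/d muscle, with signals under the floor. The list medians were 0 (-0.00) in heart and -0.23 in muscle.

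Of 5 mitokine receptor genes measured in heart, Ret, the signalling partner of the GDF15 receptor, was at least 4.12-fold lower on 1 probe set and 1.03-fold lower on the other, and 0 of 6 passed 2-fold in muscle. Of 9 other secreted factors, Angptl4, a lipase inhibitor, was lower in both tissues, by 3.23-fold in heart and 5.27-fold in muscle. None of the rest met the 2-fold call, though several were read against the floor. Il6 in both tissues and Lcn2 in muscle were the largest of these, and their differences are lower bounds. Il6 was at least 1.81-fold higher in d/d heart and at least 1.60-fold lower in d/d muscle. Lcn2 was at least 1.84-fold higher in d/d muscle. These 2 genes were picked after their values were seen. Of the mTORC1 switch on which Ddit4 and Sesn2 act, 0 of 20 measured genes passed 2-fold in either tissue, with medians of -0.16 and 0.07. Of the paralogs of the members, Trib1 was 2.31-fold lower in d/d heart, and at least 1.25-fold higher on its other probe set, while Atf7 and Gdf11 were at least 3.35-fold and at least 2.47-fold higher in d/d muscle, with the f/f signal of each under the floor.

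Other cells and RNA quality also differed between the arrays. Over all genes the median log2 difference was -0.05 in heart and 0 (-0.00) in muscle. Fibroblast markers were higher in d/d heart in 9 of 10 cases and lower in d/d muscle in 10 of 10. Their summed signal was 11940 (d/d) and 6473 (f/f) in heart and 4622 (d/d) and 7307 (f/f) in muscle. Macrophage markers were higher in d/d heart in 9 of 10 cases and lower in d/d muscle in all 9 measured, with sums of 3155, 2306, 816 and 1307 in the same order. On the heart arrays none of the 20 was at the floor. On the muscle arrays Cx3cr1 was at the floor on both and Tcf21 in d/d. Heart muscle markers summed to 44980 and 44892 in d/d and f/f heart. In muscle 5 of 7 measured were at least 2-fold lower in d/d, their sums were 3754 in d/d and 4446 in f/f, and Myl7, Ryr2 and Nkx2-5 were at the floor on both arrays. The fast skeletal sums were 38.4 and 119 in d/d and f/f heart, where 8 and 3 of 10 were at the floor, and 84446 and 80069 in muscle. The control probe set for the 3′ end of 18S ribosomal RNA read 57.5 in f/f heart and 102 to 105 on the other arrays. The 3′ over 5′ signal ratio of Gapdh was 0.847 to 0.899, and that of b-Actin was 1.37 and 1.40 on the heart arrays and 1.11 on both muscle arrays. Nupr1, Atf5, Ddit3, Asns and Mthfd2 were higher in d/d heart, as were most fibroblast and macrophage markers. In muscle Nupr1, Atf5 and Ddit3 were lower in d/d, at -0.22, -0.37 and -0.23, all within the yardstick of 0.400. Those markers were lower there too, while Asns was at 0.41 and Mthfd2 at 0.00. Of the other members, Ddit4 was at 1.12 in heart and 1.48 in muscle, Atf4 at 0.44 and 0.30 and Chac1 at 0.13 and 0.41. Trib3 was at -0.10 and 0.43, and Sesn2 at -0.28 and at least 1.77. The part of the marker and control values in the results was not tested.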

How the data were processed

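The deposited values are linear intensity readings of 45101 probe sets on 4 arrays, from 0 to 9375. How the authors made and scaled them was not given in the sources used here, and no detection call comes with them. From them, 64 control probe sets were left out, each array was scaled to a common 2% trimmed mean, values under the mean 40th percentile (7.51) were set to it, and log2 was taken. The deposited trimmed means were 66.6 and 69.2 in d/d and f/f heart and 48.2 and 51.4 in d/d and f/f muscle. Names came from GEO's platform annotation, in which 34945 probe sets had 1 symbol, 932 several and 9160 none, and an update through Entrez ids changed 0. The brightest probe set (by mean log2 signal over the arrays) stands for a gene. Groups came from the sample titles and tissue labels. Effects over all 4 arrays were fitted with limma 3.58.1 in R 4.3.3 on genes with 2 or more arrays above the floor. This fit was tried on simulated data, as was the counting of folds. The simulated genotype effect was large and equal in both tissues, so it does not show how the fit handles smaller or unequal effects. The number of arrays limits the precision.

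The members and lists were chosen with earlier results of these data known. The text names all members, and of each list other than the cell markers the genes past 2-fold in heart or muscle, at most the 4 largest per tissue (Cbs through muscle), with Atf3, Asns, Mthfd2, Hspa5 and Sod2 in any case. Alternatives changed the scaling, the floor, the probe sets used, the fold and the settings of the fit. Hepatocyte, adipocyte and endothelial markers, checked as other cells, had medians of -0.67, -0.27 and 0.37 in heart and -0.22, -0.50 and 0.18 in muscle. Promoter windows came from RefSeq.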

Additional observations from a re-analysis of the deposited data

How the results depend on the processing

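Of the single-gene and list values 434 moved by less than the spread between probe sets and 14 by more, and 0 called values changed sign. The count of members higher in d/d heart, 3, was 1 with scaling to the median above the floor and at 3-fold. It was also 1 with 16 added in place of a floor. Without probe sets of the shared-sequence types it was 1 of 5 members measured, since Nupr1, Atf5 and Trib3 have no other type. Ddit4 stayed at 1.12 in that setting. The count was 4 with the floor at the 20th or 60th percentile, with the median over probe sets and at 1.5-fold. The added gene was Trib3 at the 60th percentile (1.09) and with the median (1.16), and Ddit3 at 1.5-fold. At the 20th percentile 9 members were measured. The share of all genes higher in d/d heart was 8.91% and 3.05% at these floors, 3.07% with the median and 11.2% at 1.5-fold. It was 2.88% with scaling to the median above the floor, 1.08% at 3-fold, 1.23% with 16 added and 3.95% without shared-sequence probe sets. The count higher in d/d muscle, 2, was 1 with the floor at the 60th percentile, with the median over probe sets and at 3-fold. In these settings the shares of all genes higher in d/d muscle were 0.553%, 1.79% and 0.323%. Nupr1 ranged from 2.01 to 2.57 in heart, Ddit4 from 0.99 to 1.13 in heart and 1.27 to 1.5 in muscle, Atf5 from 0.94 to 1.11 and Ddit3 from 0.50 to 0.98 in heart. Trib3 in heart ran from -0.23 to 1.16, Sesn2 in muscle from 0.44 to 3.22 and Atf4 in muscle from -0.03 to 0.32. For these the cause was not tested.

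For f/f heart over f/f muscle, the count higher, 1, was 2 without scaling and at 1.5-fold. It was 0 with the floor at the 60th percentile, with 16 added and at 3-fold. The count lower, 4, was 2 without scaling and with 16 added, and 1 at 3-fold. Without shared-sequence probe sets it was 2 of the 5 members measured, against 8.44% of all genes. Shares of all genes higher were 24.5% at 1.5-fold, 11.3% at the 60th percentile, 5.28% with 16 added and 4.71% at 3-fold. Shares lower were 3.95% with 16 added and 3.47% at 3-fold. For d/d heart over d/d muscle, the count higher, 1, was 2 without scaling, with the median over probe sets and at 1.5-fold. It was also 2 with the floor at the 20th or 60th percentile, and 0 at 3-fold. The count lower, 2, was 1 without scaling and at 3-fold. It was 3 with scaling to the median above the floor and at 1.5-fold. Shares of all genes higher were 12.1% with the median over probe sets, 26.1% at 1.5-fold and 7.05% at 3-fold. They were 19.0% and 14.7% with the floor at the 20th and 60th percentile. Shares lower were 4.07% at 3-fold and 21.9% at 1.5-fold. Without shared-sequence probe sets the count higher was 0 and the median, 0.22, was -0.87. That setting measured 5 members and left out Nupr1, Atf5 and Trib3. Without scaling the median of all genes was 0.47 and 0.45 for these comparisons, against 0.08 and 0.01; with scaling to the median above the floor it was -0.25 in d/d and -0.06 in f/f, and -0.16 against -0.05 for d/d over f/f heart. In that setting 2.88% of genes were 2-fold higher and 5.25% lower in d/d heart; without scaling 1.51% and 3.35% in d/d muscle. The genotype fit called 1 gene with an intensity trend, and the tissue fit called 3110 genes with it and 0 genes and 0 members without the filter. With 1 array per group no array could be left out, and a term for animal could not be fitted apart from genotype. The labels do not say whether heart and muscle came from the same animals. Signals near the floor set the limit for Fgf21, Sesn2 and Trib3.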

Other observations

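Lists for other inputs that act on the members were also read. Ddit4 is a target of glucocorticoids and of hypoxia. The list holds targets of both inputs, counted together. Of 17 genes of that kind measured in d/d muscle, 13 were above 0, with a median of 0.24, against 0 (-0.00) over all genes. Per1, a clock gene induced by glucocorticoids, was 2.35-fold higher there, at 119 against 50.9. Egln3, a hypoxia target, was 2.26-fold lower there. In heart 7 of 16 were above 0 and 9 below, with a median of -0.05, and 0 passed 2-fold: Per1 read 111 against 65.0 and Fkbp5 74.0 against 44.4, while Zbtb16, Mt2 and Mt1 were at -0.54, -0.41 and -0.37. Fkbp5, a glucocorticoid target, was 1.61-fold higher in d/d muscle. It, Zbtb16, Mt1 and Mt2 were picked after their values were seen. Gdf15 and Sesn2 are targets of p53. Of 15 other p53 targets, 12 were above 0 in d/d heart, with a median of 0.27, against -0.05 over all genes. Phlda3 was 2.10-fold higher there. In muscle 7 were above 0 and the median was -0.01, against 0 (-0.00) over all genes. The share of all genes above 0 was not counted for any of these lists. Whether glucocorticoids, hypoxia or p53 had a part in the values of the members was not tested.

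Ddit4l, the paralog of Ddit4 known in skeletal muscle, read 1049 and 820 in d/d and f/f muscle and 24.3 and 32.6 in d/d and f/f heart, differing by 0.36 in muscle and -0.42 in heart, and at least 2.92-fold lower in d/d heart on another probe set. Over all genes with a promoter window, the 312 with CARE letters measured in heart had a median of 0.03, with 5.45% at least 2-fold higher in d/d, against -0.05 and 3.74% for the 10781 without. In muscle the shares were 2.96% and 2.6%. The 15 genes with the endoplasmic reticulum stress element had a median of -0.44 in heart and 0.10 in muscle. Of these 15, 9 belong to the chaperone list. These are descriptions of 1 pair of arrays per tissue.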
